A study of Homo sapiens with 8 samples.

Results

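The comparison described here sets H1650 cells given a control siRNA pool without a target (siControl, 2 libraries) against untreated H1650 cells (2 libraries). These 4 of the 8 ATAC-seq libraries of the series were chosen by their labelled group. H1650 is an established human non-small cell lung cancer line, grown here in RPMI medium with fetal bovine serum. The siControl cells received 20 nmol/L of the ON-TARGETplus control pool with the lipid reagent RNAiMAX, and the untreated cells are labelled only as untreated. The carrier lipid, the RNA duplexes and the handling of a transfection cannot be told apart in this pair of groups. The labels give neither the time between transfection and harvest nor whether the replicates were separate cultures, so the spread between replicates may be technical. The other groups of the series, siMena11a and siMena, received siRNAs against an isoform of hMENA or against hMENA as a whole.

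In ATAC-seq a transposase inserts sequencing adapters where DNA is not packed in nucleosomes, so promoters, enhancers and other regulatory elements in use collect many reads. A peak caller then lists the places where reads pile up above their surroundings. A non-targeting siRNA has no intended target, yet a transfected cell still takes up lipid and double-stranded RNA, and cells have RNA sensors such as RIG-I. A control siRNA is therefore the usual comparison for a knockdown, and untreated cells show what the transfection itself comes with.

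The deposited data were 1 peak list per library in hg19 coordinates. The siControl lists held 27304 peaks in replicate 1 and 5231 in replicate 2, against 34782 and 22424 in the untreated lists. A library's genome-wide background is the mean number of extended tags over a position, and it grows with the number of tags, for which the files give no total. It was 0.935 and 2.27 in the siControl libraries, against 0.538 and 1.09 in the untreated libraries, so siControl replicate 2 had the most tags and the shortest list of the 4. The transfected replicate 2 libraries of the other groups were alike in this, with a background of 2.54 and 2832 peaks in siMena11a and 2.88 and 1020 peaks in siMena. The labels do not say whether a replicate number marks a batch, so listing by these libraries is no independent support for a region of siControl replicate 2. The main counts over all 4 libraries are given below also without siControl replicate 2 where that changes them by over 1.5 times. Genes near the regions, their sequences and the markers of the line were not analysed here, because no hg19 annotation or genome was used.

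Peaks of the 4 lists that overlapped or touched were merged into 41663 regions covering 18.5 Mb. With the lists at their deposited lengths, control siRNA libraries had fewer regions of their own than untreated libraries. Regions listed by at least 1 siControl library and by no untreated library numbered 3059 (7.34% of all regions), against 14470 (34.7%) listed by untreated libraries alone. Most of these stood in a single list: 3003 of the 3059 and 12755 of the 14470. Both siControl libraries and neither untreated library listed 56 regions (0.134%), called gained below. Both untreated libraries and neither siControl library listed 1715 regions (4.12%), called lost. All 4 libraries listed 4353 regions (10.4%), called shared. The most frequent pattern was another one, with 11274 regions (27.1%) listed by every library except siControl replicate 2. Without siControl replicate 2, 2745 regions were gained, 1775 were lost and 15627 were listed by the other 3 libraries. The first 2 counts are not alike, because a gained region then needed 1 siControl list and a lost region still needed both untreated lists. Regions listed by at least 1 untreated library and not by siControl replicate 1 numbered 14642. That count is not on an equal footing with the 2745 either. It draws on 2 untreated lists, and the 2745 on 1 siControl list that had to differ from both. Regions listed by 1 library had median widths of 228 bp and 247 bp in siControl replicates 1 and 2, against 239 bp and 264 bp in untreated replicates 1 and 2. The median width was 738 bp for shared, 357.5 bp for gained and 359 bp for lost regions. Merging makes regions wider where more lists carry them.

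Whether a region of untreated cells was also listed after control siRNA followed its strength. Regions of each list were put in 10 classes of similar size by −log10 q, the peak caller's measure of significance, which grows with the fold and with the number of tags. Of the strongest class of untreated replicate 1, siControl replicate 1 listed 3420 of 3421 regions, and of the weakest class 966 of 3408 (28.3%). In replicate 2 these shares were 80.1% of the strongest and 3.39% of the weakest untreated class. The step lay near the top of the list in replicate 2, where 46.9% of the ninth class and 11.1% of the sixth class were listed by siControl. In the opposite direction, all 2672 regions of the strongest class of siControl replicate 1 were listed in untreated replicate 1, and 63.4% of the weakest. For siControl replicate 2 the shares listed in untreated replicate 2 were 97.0% of the strongest and 82.5% of the weakest class. In total, untreated lists contained 87.3% of the siControl regions in replicate 1 and 89.9% in replicate 2, whereas siControl lists contained 68.1% and 21.0% of the untreated regions. Within the groups, siControl replicate 1 listed 90.4% of the regions of siControl replicate 2. Untreated replicate 1 listed 79.8% of those of untreated replicate 2. The lists differ in length, and the part of length in these shares was not tested.

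**Figure D1:**
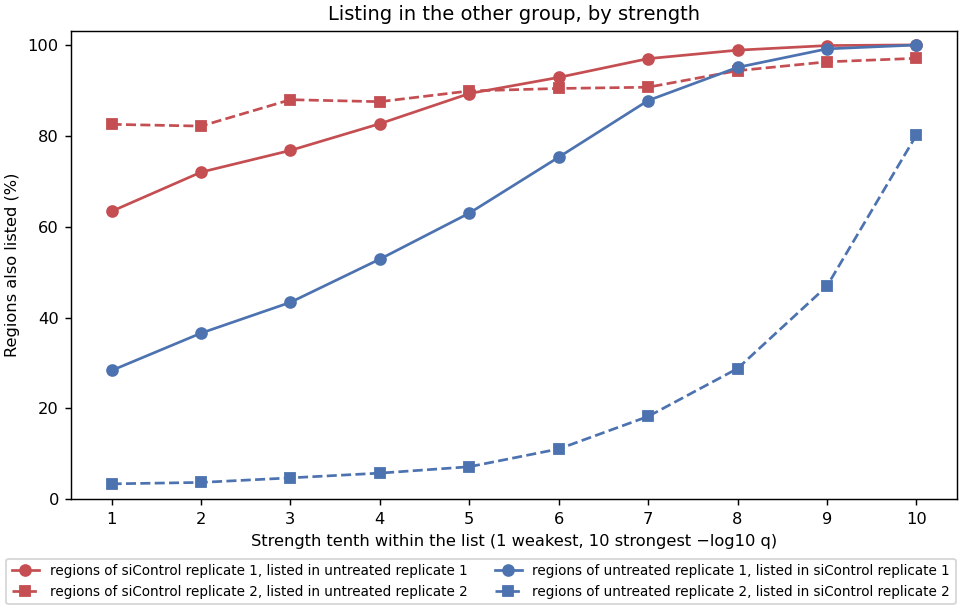
Percent of the regions of 1 library (y axis) that the library of the other group with the same replicate number also listed, by strength class within the list (x axis, 1 weakest and 10 strongest). The strongest regions were nearly all listed in both groups of replicate 1, and 80.1% of the strongest untreated regions were listed by siControl replicate 2.

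Within each replicate number, siControl peaks at the 4353 shared regions stood less high above their local background than untreated peaks. The authors' fold is the pileup of tags at the summit over the local background, with 1 added to each. Its median was 9.12 in siControl replicate 1 (quartiles 7.58 and 10.8) and 5.08 in siControl replicate 2 (4.29 and 6.04). In untreated libraries it was 10.2 in replicate 1 (8.49 and 12) and 8.44 in replicate 2 (7.04 and 10.0). The groups thus overlapped, with the siControl replicate 1 median above that of untreated replicate 2. The medians fell as the genome-wide background of the libraries rose, a link that was not tested. Within replicate 1 the median ratio of siControl over untreated was 0.901, and 3147 of the regions (72.3%) had the lower fold in siControl. Within replicate 2 the median ratio was 0.618, and 4207 regions (96.6%) had the lower fold in siControl. The direction was the same in both replicate numbers, and the size differed. In 3059 regions (70.3%) the fold was lower in siControl in both replicate numbers, and in 58 (1.33%) it was higher in both, against 1199 in replicate 1 alone.

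**Figure D2:**
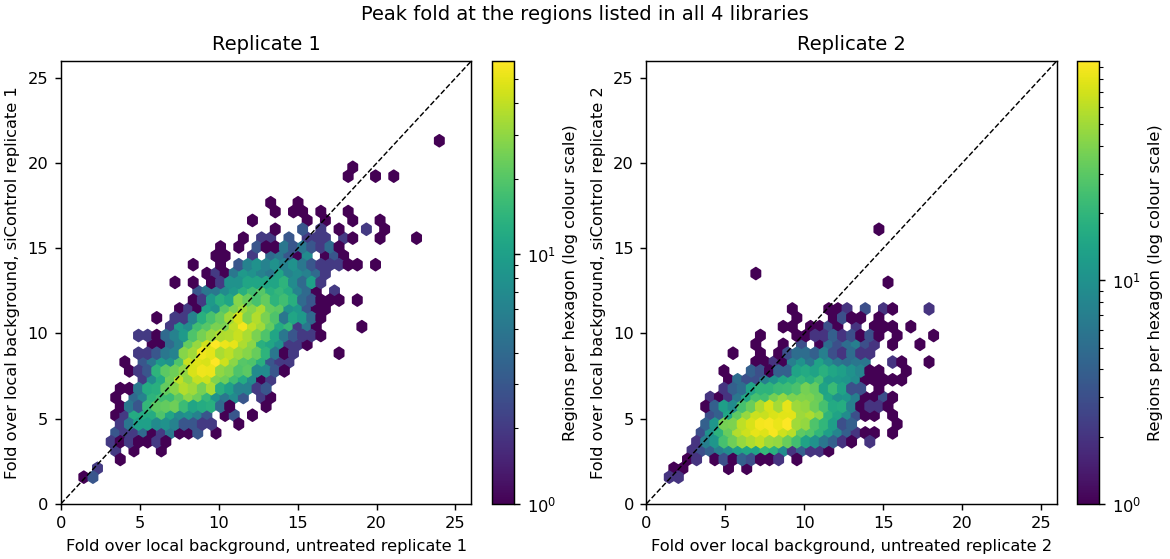
Fold of summit pileup over local background at the 4353 shared regions, siControl on the y axis and untreated on the x axis, for replicate 1 (left) and replicate 2 (right), with colour giving the number of regions on a log scale and the dashed line equal folds. Most regions lie below the line in both panels, with a median ratio of 0.901 on the left and 0.618 on the right.

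The fold could be split into its parts, because whole tags at each summit and the local background were recovered from the deposited values. The median summit held 35 and 21 tags in siControl replicates 1 and 2, against 35 and 32 tags in untreated replicates 1 and 2. Counting error alone gives 21 tags a 95% exact Poisson interval of 13.0 to 32.1, and 35 tags an interval of 24.4 to 48.7. Divided by the genome-wide background of its library, the median summit stood at 37.4 and 9.27 times background in siControl, against 65.0 and 29.4 times in untreated libraries. The local background around the same summits stood at 3.08 and 1.40 times the genome-wide value in siControl, against 4.53 and 2.64 times in untreated libraries. Within each replicate number, summits and their surroundings were thus both lower relative to the whole genome in siControl. Across the numbers the groups overlapped, because siControl replicate 1 stood above untreated replicate 2 in both values. The median ratio of siControl over untreated was 0.576 for summits and 0.675 for surroundings in replicate 1, and 0.321 and 0.556 in replicate 2. The siControl libraries also had the higher genome-wide background within each replicate number, and the part of the number of tags in the lower values was not tested.

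Within-list percentiles, in which 100 is the top of a list by −log10 q, gave shared regions a median of 88.6 and 52.2 in siControl replicates 1 and 2. In untreated replicates 1 and 2 the medians were 90.2 and 86.2. The median difference of siControl minus untreated was -0.86 points within replicate 1 and -24.9 points within replicate 2. A shared region makes up a larger part of a short list, which by itself lowers its percentile there. With each list shortened to its 5231 strongest peaks, 2096 regions were shared, and over these the differences were 0.45 and -1.35 points. The set of regions changed along with the list length, so the part of length alone was not tested.

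To compare lists of unequal length, the shared regions were ranked among themselves in each library, from 0 to 100 by −log10 q, so that each library had the same number of ranks. The order of the regions differed about as much between replicates of 1 group as between the groups. The median absolute rank difference was 17.7 points between the 2 siControl replicates and 15.4 points between the 2 untreated replicates. Between siControl and untreated it was 10.6 points within replicate 1 and 17.7 points within replicate 2. The 2 replicate 1 libraries had the most similar order of any pair, with a Spearman rho over regions of 0.803, and siControl replicate 2 with untreated replicate 1 the least, with 0.429. These coefficients describe 4353 regions measured in the same 4 libraries, and regions are not replicates.

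A rank shift is the rank in siControl minus the rank in untreated within 1 replicate number. Shifts of at least 20 points upward in both replicate numbers occurred in 162 shared regions (3.72%), and of at least 20 points downward in both in 141 (3.24%). In replicate 1 alone there were 556 and 533 such regions. Shifts of that size with opposite signs were of similar number, 124 upward in replicate 1 and downward in replicate 2, and 128 the other way. Of all shared regions, 2280 (52.4%) shifted in the same direction in both numbers, and the Pearson correlation of the 2 shifts over regions was 0.061. Neighbouring shared regions, up to 50 kb apart, shifted alike to a small extent, with a Pearson correlation over 692 pairs of 0.095 in replicate 1 and 0.223 in replicate 2. Both siControl ranks lay above both untreated ranks in 664 regions (15.3%) and below both in 612 (14.1%). Without siControl replicate 2, the rank in siControl replicate 1 lay above both untreated ranks in 1394 regions (32.0%) and below both in 1275 (29.3%). With 2 libraries a group no region can pass an exact test, and these counts are descriptions. Just inside and just outside the 20 points lay 19 and 22 regions on the upper side and 15 and 23 on the lower side, within 1 point of the limit.

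**Figure D3:**
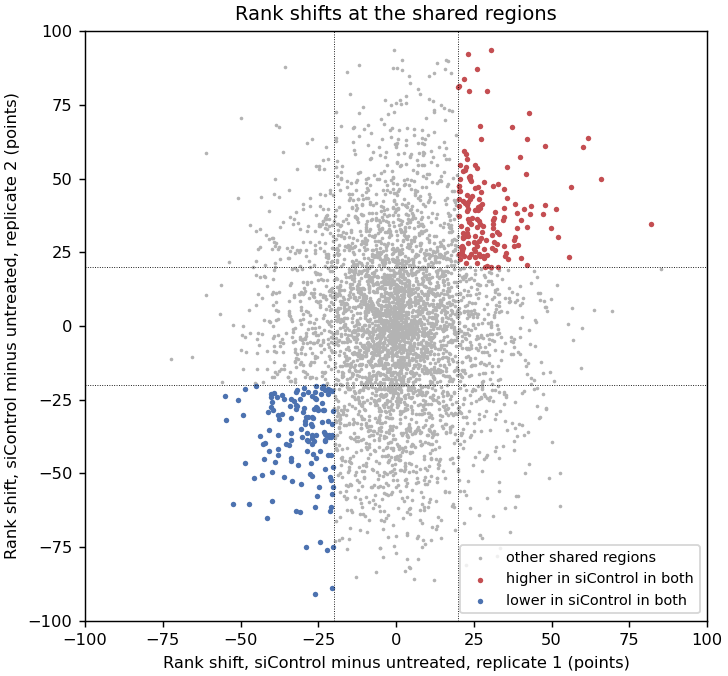
Rank shift of siControl minus untreated among the 4353 shared regions, replicate 1 on the x axis and replicate 2 on the y axis, in points of rank from 0 to 100. The 162 regions shifted upward and the 141 shifted downward by at least 20 points in both numbers are coloured, and the cloud has no slope to speak of, with a Pearson correlation of 0.061.

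The shift subtracts the untreated rank, so regions ranked higher in siControl tend to be weak in untreated cells by the choice alone, and the values that follow are descriptions. Their median fold was 10.3 and 5.82 in siControl replicates 1 and 2, against 8.45 and 7.14 in untreated replicates 1 and 2. The fold itself was higher in siControl in replicate 1 in 156 of the 162 regions, and in replicate 2 in 21 of them. Of all 4353 shared regions, 1199 had the higher siControl fold in replicate 1 and 146 in replicate 2. In replicate 2 most of the regions ranked higher had a lower siControl fold, but by less than the other shared regions. The regions ranked lower in siControl had median folds of 8.20 and 4.04 in siControl, against 11.9 and 9.18 in untreated replicates. All 141 had a lower siControl fold in both numbers, which was so for 3059 (70.3%) of all shared regions. The median width was 670.5 bp for regions ranked higher and 730 bp for those ranked lower, against 742 bp for the other shared regions. Of the regions ranked higher, 24 (14.8%) were also listed by siMena replicate 2, against 3 (2.13%) of those ranked lower and 563 (13.9%) of the other shared regions. In siMena11a replicate 2 these shares were 40.1%, 34.8% and 46.6%. The other transfected libraries listed most of both sets, siMena11a replicate 1 with 160 of the 162 ranked higher and all 141 ranked lower, and siMena replicate 1 with 92.6% and 93.6%.

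Among the shared regions ranked higher, the one whose smaller shift was largest lay at chr4:16142396-16143172. Its fold was 15.0 and 6.86 in siControl replicates 1 and 2, against 9.85 and 7.09 in untreated replicates 1 and 2. It rested on 53 and 23 tags in siControl and 26 and 18 tags in untreated cells, and its rank was 61.8 points higher in replicate 1 and 63.8 points higher in replicate 2. The fold was clearly apart in replicate 1 alone, while in replicate 2 the 2 values nearly coincided.

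The second region, chr2:87623665-87624099, had folds of 8.51 and 6.94 in siControl, against 7.55 and 6.47 in untreated cells. Its summits held 55 and 105 tags in siControl and 23 and 36 tags in untreated cells. Both siControl folds exceeded the untreated fold of their own replicate number, but the groups overlapped. The third, chr3:111805014-111805643, had folds of 13.8 and 5.66 in siControl, against 8.50 and 6.50 in untreated cells, so its replicate numbers differed in direction. The fourth lay near the end of the long arm of chromosome 4, at chr4:190156054-190156636. Its folds were 7.56 and 7.19 in siControl, against 5.08 and 5.95 in untreated cells, without overlap. Both siMena11a libraries and both siMena libraries also listed this region, with folds of 6.02 and 7.65 in siMena11a and 5.62 and 6.37 in siMena.

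A region at chr8:82754093-82755166 had the highest replicate 2 fold of the 8 named regions. Its folds were 9.82 and 13.7 in siControl, against 7.84 and 6.97 in untreated cells, and its summits held 42 and 70 tags in siControl and 28 and 27 tags in untreated cells. In contrast to most shared regions, its fold was higher in siControl replicate 2 than in siControl replicate 1. The same held in the other transfected groups, with folds of 8.75 and 14.2 in siMena11a replicates 1 and 2 and 9.55 and 13.5 in siMena replicates 1 and 2. A region at chr11:3675041-3676037 had folds of 9.76 and 10.2 in siControl, against 7.14 and 8.81 in untreated cells, and also did not overlap between the groups. The last 2 named regions, at chr14:39736045-39736830 and chr7:16524367-16524816, had higher siControl folds in replicate 1 (10.4 against 6.86 in untreated, and 9.70 against 6.50) and lower ones in replicate 2 (6.73 against 7.31, and 6.10 against 6.76). Of the 8 regions, 3 had both siControl folds above both untreated folds, which was so for 16 (0.368%) of the shared regions. Without siControl replicate 2, the siControl replicate 1 fold exceeded both untreated folds in 965 shared regions (22.2%). The 8 regions were taken for the size of their rank shift, so this count describes them and tests nothing.

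**Figure D4:**
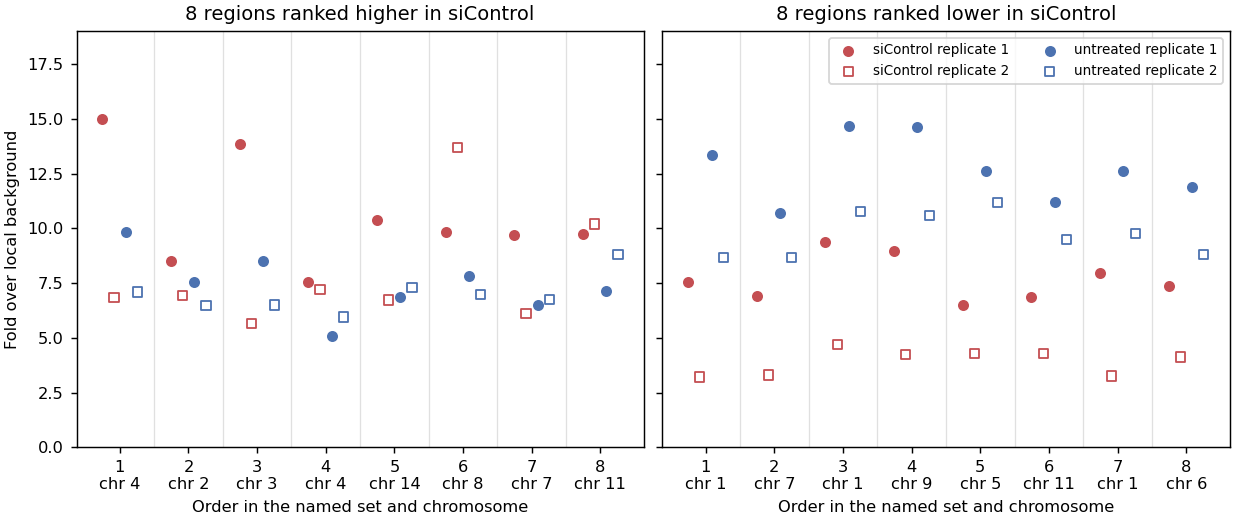
Fold over local background in each of the 4 libraries (red siControl, blue untreated, filled circles replicate 1, open squares replicate 2) for the 8 shared regions with the largest upward rank shift (left) and the 8 with the largest downward shift (right). The downward set does not overlap between the groups in any region, while the upward set overlaps in 5 of 8.

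The shared regions ranked lower were more alike. The first, chr1:6052218-6052973, had folds of 7.57 and 3.22 in siControl, against 13.4 and 8.68 in untreated cells. Its summits held 32 and 19 tags in siControl and 49 and 41 tags in untreated cells. The siControl replicate 2 library, with the highest genome-wide background of the 4, had the fewest tags at this place. The second, chr7:134895942-134896815, had folds of 6.90 and 3.31 in siControl, against 10.7 and 8.66 in untreated cells. A region at chr5:147647968-147648536 had folds of 6.52 and 4.29 in siControl, against 12.6 and 11.2 in untreated cells, and rested on 14 and 13 tags in siControl and 27 and 29 tags in untreated cells. It had the lowest siControl replicate 1 fold of the 8.

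The other 5 lay at chr1:247267213-247267942, chr1:228327446-228328175, chr9:117314109-117314839, chr11:75525548-75526539 and chr6:144537056-144538065. Over all 8, the fold ran from 6.52 to 9.39 in siControl replicate 1 and from 3.22 to 4.69 in siControl replicate 2. In untreated cells it ran from 10.7 to 14.7 in replicate 1 and from 8.66 to 11.2 in replicate 2. In each of the 8 regions both siControl folds lay below both untreated folds, which was so for 1298 (29.8%) of all shared regions, and for 1315 without siControl replicate 2. With peaks over 50% of a region's length, 0 of these 8 were called lower and 4 of the 8 above were called higher, and with a −log10 q of at least 5 the counts were 2 and 8. The siMena11a replicate 1 library listed all 8 with folds from 9.06 to 13.0, and siMena replicate 1 all 8 with folds from 5.56 to 10.4. The siMena replicate 2 library listed none of them, and its list is the shortest of the series.

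The 6 strongest shared regions were chosen by their lowest percentile over the 4 lists, which was at least 99.2, so their high place is the choice itself. Their folds in the groups were as follows. At chr5:8457362-8458332 the fold was 12.5 and 10.8 in siControl, against 14.2 and 12.6 in untreated cells, on 76 to 87 tags. At chr11:105892573-105893519, which led the siControl replicate 1 and untreated replicate 2 lists, the fold was 15.8 and 11.2 in siControl, against 16.0 and 14.9 in untreated cells. At chr3:167452268-167453650 it was 10.4 and 9.64 in siControl, against 11.1 and 11.7 in untreated cells. The others were at chr8:110345791-110347021, chr2:163200281-163201034 and chr16:77224262-77225222. Over the 6 regions the fold ran from 10.4 to 15.8 in siControl replicate 1 and from 7.97 to 11.6 in siControl replicate 2, against 11.1 to 16.2 and 11.7 to 14.9 in untreated replicates 1 and 2. In all 6 the siControl fold was the lower one within each replicate number, which was so for 3059 (70.3%) of all shared regions. In 3 of them both siControl folds lay below both untreated folds, which was so for 1298 (29.8%) of all shared regions.

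The 56 gained regions stood low in the list of siControl replicate 1 and around the middle of that of siControl replicate 2. Their fold ran from 2.42 to 7.20 with a median of 4.47 in siControl replicate 1, and from 2.17 to 8.33 with a median of 4.34 in siControl replicate 2. In siControl replicate 1 their median percentile was 19.8, and 6 of the 56 stood in the upper part of the list, above the 50 percentile. In siControl replicate 2 the median percentile was 56.8, with 36 above the 50 percentile and 7 above the 90 percentile. The fold was higher in replicate 2 than in replicate 1 for 17 of them (30.4%), against 116 (2.66%) of the shared regions. The 2 shares are not on an equal footing, because a peak at the genome-wide background was listed in siControl replicate 2 from a fold of 3.67 upward, and a region weak in replicate 1 could enter with a high ratio only. The median tag count at their summits was 16.5 in replicate 1 and 35 in replicate 2.

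By the lower of its 2 folds, the first gained region was chr16:508343-508667, with folds of 6.60 and 8.33 on 13 and 35 tags. It was followed by chr6:27162808-27163041, with folds of 6.20 and 7.93, and by chr12:1683443-1683695, with folds of 7.20 and 6.04. Next came chr18:60885766-60886043, with folds of 7.07 and 5.82, and chr2:240566155-240566698, with folds of 5.51 and 6.93. The others were chr2:5162741-5162980, chr11:61158788-61159008 and chr15:25773171-25773585, the last of which rested on 9 tags in replicate 1 and 18 in replicate 2. Tags and folds of these regions in untreated cells were not listed, which says only that no peak passed the caller's threshold there. Of all 56 gained regions, siMena11a replicates 1 and 2 listed 18 and 41, and siMena replicates 1 and 2 listed 13 and 39. The share of all merged regions that each of these lists held is not given here. Of the 8 named regions, siMena11a replicate 2 listed 7 and siMena replicate 2 listed 5. The longer lists of siMena11a replicate 1 and siMena replicate 1 held 3 and 1 of them. None of the 8 was within 1 kb of a shared region, and the nearest stood 88.6 kb away.

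The 1715 lost regions stood in the lower part of the untreated lists, with median percentiles of 29.3 in replicate 1 and 33.3 in replicate 2. Above the 50 percentile were 352 of them in replicate 1 and 501 in replicate 2. Their median fold was 5.91 in untreated replicate 1 and 5.65 in replicate 2, on a median of 11 and 14 tags. None stood above the 90 percentile of untreated replicate 1, and 29 did so in replicate 2. Their folds were multiplied by the median ratio of the shared regions, 0.901 or 0.618. The scaled folds were set beside the lowest fold that each siControl list carried at the genome-wide background. After this scaling, 1470 (85.7%) of the lost regions still reached the fold of 4.13 from which siControl replicate 1 listed peaks at the genome-wide background. In replicate 2, 689 (40.2%) reached the limit of 3.67, and 603 (35.2%) reached both. With the gained folds divided by the same ratios, 42 of the 56 gained regions would have reached the untreated limits of 3.90 and 3.83. These limits hold at the genome-wide background, and places with more background need other folds. The ratios come from shared regions, which passed the caller in every list, and lost and gained regions were chosen by listing. The counts therefore cannot tell how many of them the other group would have listed.

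By the lower of its 2 folds, the first lost region was chr14:48820186-48820575, with folds of 10.0 and 11.7 on 17 and 30 tags in untreated replicates 1 and 2. Next to it stood chr6:10237896-10238232, with folds of 10.7 and 10.0, and chrX:115363866-115364569, with folds of 10.2 and 9.72. Then came chr6:155447976-155448620, with folds of 9.69 and 11.3, and chr5:110725086-110725438, with folds of 10.3 and 9.47. They were followed by chr6:2810155-2810977, with folds of 9.34 and 9.32, and chr3:112950672-112950993, with folds of 9.28 and 10.2. The last, chr6:10633450-10633840, had folds of 9.10 and 9.35 on 13 and 28 tags. Over the 8, folds ran from 9.10 to 10.7 in untreated replicate 1 and from 9.32 to 11.7 in replicate 2. The 8 were taken for their fold, and the shared regions had median folds of 10.2 and 8.44 in untreated cells. By tags and place in the list they stood lower in untreated replicate 1, with 13 to 19 tags against a shared median of 35 and percentiles of 63.4 to 76.7 against a shared median of 90.2. The transfected library siMena11a replicate 1 listed all 8 with folds from 4.78 to 11.0, while siMena11a replicate 2 and both siMena libraries listed none. Of all 1715 lost regions, siMena11a replicates 1 and 2 listed 1259 and 4, and siMena replicates 1 and 2 listed 139 and 1. Their lists held 35472 and 2832 peaks in siMena11a and 14678 and 1020 in siMena. The share of all merged regions that each listed is not given here.

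The balance of regions ranked higher and lower differed between chromosomes. Of the 23 chromosomes 1 to 22 and X, chromosome 19 had the lowest fold ratio of siControl over untreated in both replicate numbers but few shared regions. Over its 32 shared regions the median ratio was 0.775 in replicate 1 and 0.470 in replicate 2, and the median rank shift was -11.8 and -24.0 points. Of these 32, 1 ranked higher and 5 ranked lower in both numbers. On chromosome 16, 3 of 117 ranked higher and 10 ranked lower, with ratios of 0.836 and 0.561. On chromosome 1, 13 of 370 (3.51%) ranked higher and 23 (6.22%) lower, against 3.72% and 3.24% of all shared regions. The opposite held on chromosome 4, where 21 of 284 ranked higher and 5 lower and the ratios were 0.936 and 0.655. Chromosome X had 6 of 71 ranked higher and 1 lower. Chromosome 2 had 18 of 496 (3.63%) ranked higher, near the share of all shared regions, and 8 (1.61%) lower. Most of these counts are small. The median shift had the same sign in both replicate numbers on 11 of the 23 chromosomes, below 0 on 9 and above 0 on 2. No test was made between chromosomes, and gene density or base composition of the regions was not analysed here.

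**Figure D5:**
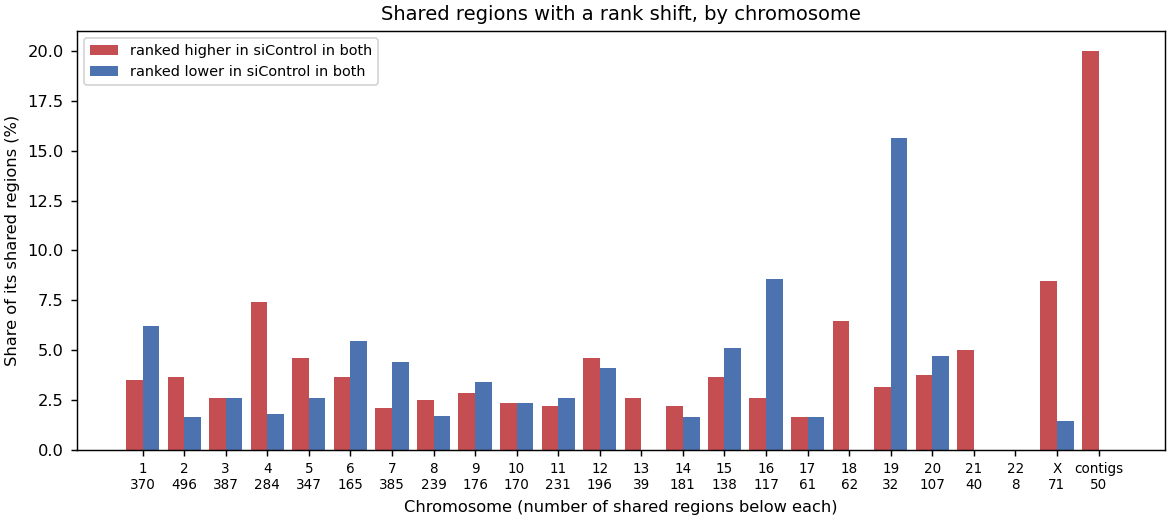
Share of the shared regions of each chromosome (y axis, percent) that ranked at least 20 points higher (red) or lower (blue) in siControl in both replicate numbers, with the number of shared regions under each chromosome. Chromosomes 16 and 19 have more regions ranked lower, chromosome 4, chromosome X and the unplaced contigs more ranked higher.

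Unplaced and unlocalised contigs, which in this build hold many repeated sequences, stood apart. They held 198 of the 41663 regions (0.475%), but 9 (16.1%) of the 56 gained, 3 (0.175%) of the 1715 lost and 50 (1.15%) of the shared regions. Of the 76 regions listed by both siControl libraries and untreated replicate 2, 23 (30.3%) lay on contigs. Without siControl replicate 2, 23 gained regions (0.838%), 4 lost regions (0.225%) and 64 regions listed by the other 3 libraries (0.410%) lay on contigs. Among the 50 shared contig regions, 10 ranked higher in both replicate numbers and 0 ranked lower. In replicate 1 alone 16 ranked higher and 0 lower. Their median rank was 25.3 and 90.9 in siControl replicates 1 and 2, against 5.42 and 28.9 in untreated replicates 1 and 2. The median fold itself was not higher in siControl, with 4.94 and 4.36 in siControl, against 4.95 and 5.41 in untreated cells. It was lowered less than elsewhere. The median ratio of siControl over untreated was 0.974 and 0.855 at these regions, against 0.901 and 0.618 at all shared regions. The contig summits held a median of 46 and 88 tags in siControl, against 27 and 49.5 tags in untreated cells, and their local background stood at 9.69 and 8.65 times the genome-wide value in siControl and 8.73 and 7.76 times in untreated libraries. The −log10 q of a peak of given fold grows with its tags, and the part of the number of tags in the contig ranks was not tested. With chromosomes 1 to 22 and X alone, 47 regions were gained, 1709 were lost, and 158 and 138 shared regions ranked higher and lower.

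The 58 shared regions whose fold was higher in siControl in both replicate numbers, without regard to rank, had a median fold of 7.90 and 5.99 in siControl, against 6.84 and 5.47 in untreated cells. Compared with the medians of all shared regions, these folds were lower in siControl replicate 1 and in both untreated libraries, and higher in siControl replicate 2. Their median width was 587.5 bp. On contigs lay 7 of them (12.1%), and 21 were also among the regions ranked higher. The siMena11a libraries listed 57 and 28 of the 58 in replicates 1 and 2, and the siMena libraries 47 and 22. Of the shared regions ranked neither higher nor lower, siMena11a replicates 1 and 2 listed 99.8% and 46.6%. For siMena replicates 1 and 2 these shares were 90.02% and 13.9%. The 58 were thus listed less often by siMena replicate 1 and more often by siMena replicate 2. The 2 sets overlap, and the difference was not tested.

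The difference of mean log2 peak number, siControl minus untreated, was -1.22 (two-sided exact permutation p = 0.667, where 2 libraries against 2 allow no p below 0.333). Without siControl replicate 2 it was -0.03.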

How the data were processed

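ATAC-seq peak lists of 4 H1650 libraries were compared, and the 4 libraries of the siMena11a and siMena groups were read for listing at the same places. Per the submitters' processing notes, the tools were MACS2 2.2.5, Bowtie2 2.3.4.2, SAMtools 1.7 and FastQC 0.11.5, and the build hg19. Trimming, duplicate removal and the shift for the transposase are not given in the sources used here. The deposited lists give per summit a score (10 times the −log10 q, rounded down), the authors' fold of pileup over local background, a −log10 p and a −log10 q, which reaches down to just above 2.00 in each list. The authors did not pool replicates. A fold or score per peak is the authors' own value and was used as a description.

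From these values, regions were merged, and a region took the highest fold and −log10 q of its summits in each list. Tags and score belong to the summit of highest fold. Whole tags and local background were recovered from fold and −log10 p by the caller's Poisson formula, within 0.001 for 100.0% of rows. Coordinates are hg19, counted from 1. Named regions lie on chromosomes 1 to 22 and X: the 8 largest rank shifts each way, the 6 strongest, and the 8 gained and 8 lost of highest lower fold. Regions and lists were chosen with earlier results of these data known. Gene lists fixed for an hg19 annotation were not used here. Replicates are as labelled, and intervals cover counting error only. The code was checked on simulated data. Computation used SciPy 1.17.1, pandas 2.3.3 and numpy 2.4.6 in Python 3.11.15, and plots matplotlib 3.10.9. Alternatives were a stricter threshold, equal list lengths, another overlap rule, other region sets, other rank measures and each library left out.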

Additional observations from a re-analysis of the deposited data

How the results depend on the processing

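Of 83 alternative values, 56 stayed on their side or within 1.5 times of the value reported, 26 moved and 1 reversed. With lists of equal length (5231 peaks), 217 regions were gained, 217 lost and 2096 shared, and the median percentile difference was 0.45 points in replicate 1, reversed in sign, and -1.35 points in replicate 2. Of the 8 regions named in each set, 0 gained, 0 lost, 0 ranked higher and 3 ranked lower were then called. Where a library counted only with peaks over 50% of the region's length, 1999 regions were shared, of which 48 ranked higher and 62 lower. A shift of 30 points left 42 higher and 37 lower, within-list percentiles gave 22 and 228, and ranks by fold gave 222 and 222. Summit tags over the genome-wide background gave ratios of 0.576 and 0.321. Leaving out 1 library gave from 132 to 2745 gained regions, from 1775 to 12989 lost, from 4413 to 15627 shared, and log2 differences of peak number from -2.42 to -0.03. With 1 replicate number alone, 1034 to 3786 regions ranked higher and 1081 to 3777 lower. These counts rest on another set of regions than the 4353 shared by all libraries. Over those 4353, replicate 1 alone gave 556 higher and 533 lower, and replicate 2 alone 990 and 996. With the replicate number as a block (replicate block), the peak number difference stayed -1.22 (exact sign-flip p = 0.5, the smallest that 2 pairs allow). Deviations of same-numbered libraries from their group means correlated with r = 0.307 over shared regions, but 2 pairs do not show that the numbers pair the libraries. The files give no read totals, and the number of tags at a summit, 21 at the median shared region in siControl replicate 2, limits the precision of each value. The cause of these moves was not tested.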
